A study of Mus musculus with 32 samples.

Results

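A set of 8 genes of transcription and signalling were followed through brain, kidney, muscle and pancreas of male Nox4 knockout mice. They are Gtf2f2, Otx1, Olig2, Cdyl, Pkig, Gpc3, Sec23b and Cnp, 8 of the 9030 gene symbols on the array, measured by 10 of its 20794 probes. They were chosen by their measured brain ratios, for lying on the same side of the wild-type RNA pool in every knockout brain, so their brain values are given as a description with no test. The tested animals were 4 males with the label Nox4 knockout and the mutation written as -/-, on a C57BL/6 background and 17 weeks of age, and each gave all 4 tissues. Each tissue sample was hybridised to a pair of cDNA microarrays with the dyes Cy3 and Cy5 exchanged, against RNA pooled from wild-type C57BL/6 males of the same age. The design text gives 4 wild-type animals for the pool and the labelling protocol gives 6. The labels name no Cre driver and do not describe the deleted part of Nox4.

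Nox4 encodes an NADPH oxidase that releases hydrogen peroxide. The members act at separate steps of gene regulation and signalling. Gtf2f2 is the small subunit of TFIIF, which joins RNA polymerase II at promoters. Otx1 is a homeobox factor of forebrain and sense organ development, Olig2 a basic helix-loop-helix factor of the oligodendrocyte lineage, and Cdyl a chromodomain corepressor that binds methylated histones. Pkig inhibits the catalytic subunit of protein kinase A, Gpc3 is a heparan sulphate proteoglycan anchored at the cell surface that modulates growth factor and Hedgehog signals, and Sec23b is part of the COPII coat of vesicles leaving the endoplasmic reticulum. Cnp is a phosphodiesterase abundant in myelin.

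The stretches upstream of the annotated starts are shown for the 3 members with 1 promoter window in RefSeq (GRCm38.p6) that begins at the end of the gene itself, so that genes on opposite sides of the pool in brain can be set beside each other. Gtf2f2 lay above the pool in brain, and Olig2 and Gpc3 below it. Each run holds the 250 bases before the start, 5′ to 3′ on the strand of the gene, with matches to any of 6 motifs in capitals. They lie at chr14:76010866-76011115 on the minus strand for Gtf2f2, at chr16:91225300-91225549 on the plus strand for Olig2 and at chrX:52613975-52614224 on the minus strand for Gpc3. The motifs, searched on both strands, were TATAAA (the TATA box), CCAAT (the CCAAT box), GGGCGG (the GC box), TAATCC (bound by Otx-type homeodomains), CATATG (an E-box) and CANNTG (any E-box, the class of site bound by Olig2, which includes the form before it).
Gtf2f2: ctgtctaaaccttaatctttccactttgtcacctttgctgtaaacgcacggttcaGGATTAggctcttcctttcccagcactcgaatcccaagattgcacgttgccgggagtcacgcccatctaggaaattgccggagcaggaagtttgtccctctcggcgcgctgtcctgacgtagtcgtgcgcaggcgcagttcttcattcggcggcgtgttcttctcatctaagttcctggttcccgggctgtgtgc
Olig2: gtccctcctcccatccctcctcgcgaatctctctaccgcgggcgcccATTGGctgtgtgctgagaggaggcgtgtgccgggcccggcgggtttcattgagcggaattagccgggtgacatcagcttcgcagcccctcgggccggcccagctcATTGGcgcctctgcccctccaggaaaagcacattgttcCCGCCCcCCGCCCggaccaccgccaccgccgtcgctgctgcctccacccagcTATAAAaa
Gpc3: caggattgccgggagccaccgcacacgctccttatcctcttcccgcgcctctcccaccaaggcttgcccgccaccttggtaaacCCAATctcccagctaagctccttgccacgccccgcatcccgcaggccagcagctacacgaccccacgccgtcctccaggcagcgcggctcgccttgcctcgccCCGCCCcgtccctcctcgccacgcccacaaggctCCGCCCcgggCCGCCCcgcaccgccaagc

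The Gtf2f2 stretch held 1 TAATCC, on the reverse strand, a motif found in 6.25% of all 32851 windows of this length. The Olig2 stretch held 1 TATAAA (12.4% of windows hold it), 2 CCAAT (33.8%) and 2 GGGCGG (32.7%), and the Gpc3 stretch 1 CCAAT and 3 GGGCGG. No E-box of either form was among these letters in the 3 stretches, and CANNTG was in 66.2% of windows. Bases G and C made up 54.4% of the Gtf2f2 stretch, 66.8% of the Olig2 stretch and 71.6% of the Gpc3 stretch. Of the other members, 4 had a window that was not printed. These matches describe letters only.

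Values are log2 ratios per array, which likely run knockout over pool, since the design text sets mutant against pool and each sample's own channel holds knockout RNA. If the ratios are inverted, above and below swap throughout. It is also not stated whether the ratios of the dye-swapped arrays were already turned to run the same way; they are used as deposited. If the Cy3 arrays still need turning, 6 of the 8 brain means change sign (all but Gtf2f2 and Cdyl), as do 5 of the 7 differences of brain minus the other tissues (all but Otx1 and Pkig). No probe is named Nox4 (0 of 20794), so neither the labels nor the direction could be checked on the deleted gene. Ratios hold no transcript levels, so the tissue labels could not be checked against marker genes and no tissue can be called rich or poor in a member. Arrays carried 19815 to 20684 values. A small class of values beyond 8 in size (1844 of 655162) was positive only where Cy5 labelled the knockout RNA and negative only where Cy3 did, and none touched a member in brain or kidney. They touched 2 members in muscle and 2 in pancreas. The members' values in these tissues are given with that in view.

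In brain, 3 members lay above the pool and 5 below it, with sizes from 0.10 to 0.49 on the log2 scale. Gtf2f2 had animal means of 0.51, 0.44, 0.47 and 0.56, or 0.49 ± 0.05 (SD, n = 4), which is 1.41-fold. The spread over single arrays was far wider: from −0.39 to 1.47, with 5 of 8 arrays above 0 and an SD of 0.73 over arrays. In animals 2 and 4 the Cy5 array was high and the Cy3 array below 0, in animal 3 the reverse, and the pairs averaged to nearly the same value. Less RNA per cell and fewer cells of a type cannot be told apart in these whole-tissue samples, here and below.

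Cdyl had brain means of 0.53, 0.39, 0.11 and 0.71, or 0.44 ± 0.25 (SD, n = 4), with 7 of 8 arrays above 0. Its 2 probes disagreed. Probe 9166 stood at 0.89 ± 0.43 (SD, n = 4), above 0 on all 8 arrays, with single arrays between 0.05 and 2.14. Probe 4825 stood at −0.02 ± 0.08, below 0 in 3 of 4 animals, with arrays between −0.25 and 0.10. The brain value of Cdyl came from 1 of its 2 probes. Sec23b had brain means of 0.25, 0.15, 0.28 and 0.37, or 0.26 ± 0.09 (SD, n = 4). In all 4 animals the array with knockout RNA in Cy3 gave the larger ratio (mean 0.44 against 0.08 in Cy5).

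Below the pool, Otx1 had brain means of −0.28, −0.41, −0.25 and −0.39, or −0.33 ± 0.08 (SD, n = 4), and Gpc3 had −0.24, −0.19, −0.58 and −0.43, or −0.36 ± 0.18. Pkig had −0.21, −0.20, −0.28 and −0.27, or −0.24 ± 0.04, the smallest SD between brain animals among the 8 genes. Otx1, Pkig and Gpc3 were below 0 on all 8 brain arrays, and these were the only members with 1 sign on all arrays. Over the whole array 147 genes, 0.900% of those with 8 values, had 1 sign on all 8 brain arrays. These lie among the 2546 genes with 1 sign in every brain. The members were picked from those 2546, so the 0.900% is no background for them. Both Pkig probes lay below the pool in all 4 animals, probe 20675 at −0.28 ± 0.08 (SD, n = 4) and on all 8 arrays, probe 11126 at −0.20 ± 0.14 and on 7 of 8.

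The oligodendrocyte genes had the smallest sizes. Cnp had brain means of −0.11, −0.02, −0.18 and −0.34, or −0.16 ± 0.13 (SD, n = 4). Olig2 had −0.01, −0.16, −0.145 and −0.10, or −0.10 ± 0.07. Both differed in sign between the dyes. Cnp averaged 0.10 over the Cy5 arrays and −0.42 over the Cy3 arrays. Olig2 averaged 0.01 over the Cy5 arrays and −0.21 over the Cy3 arrays, and each gene had 5 of 8 arrays below 0. For the other 6 members the Cy5 mean and the Cy3 mean had the same sign, though 3 of 8 Gtf2f2 arrays were below 0. Members were picked on the average of both dyes in each brain, which favours such agreement there. The tissues left out of the choice showed less of it. Dye means of opposite sign were found for 7 of 8 members (pancreas), 6 of 8 (muscle) and 5 of 8 (kidney). Gpc3 is in the pancreas count, although only animal 4 had both arrays there. Animal 1 for Olig2 and animal 2 for Cnp were the animal means closest to 0, so these genes met the choice of 1 sign in every brain by the narrowest margin.

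**Figure D1:**
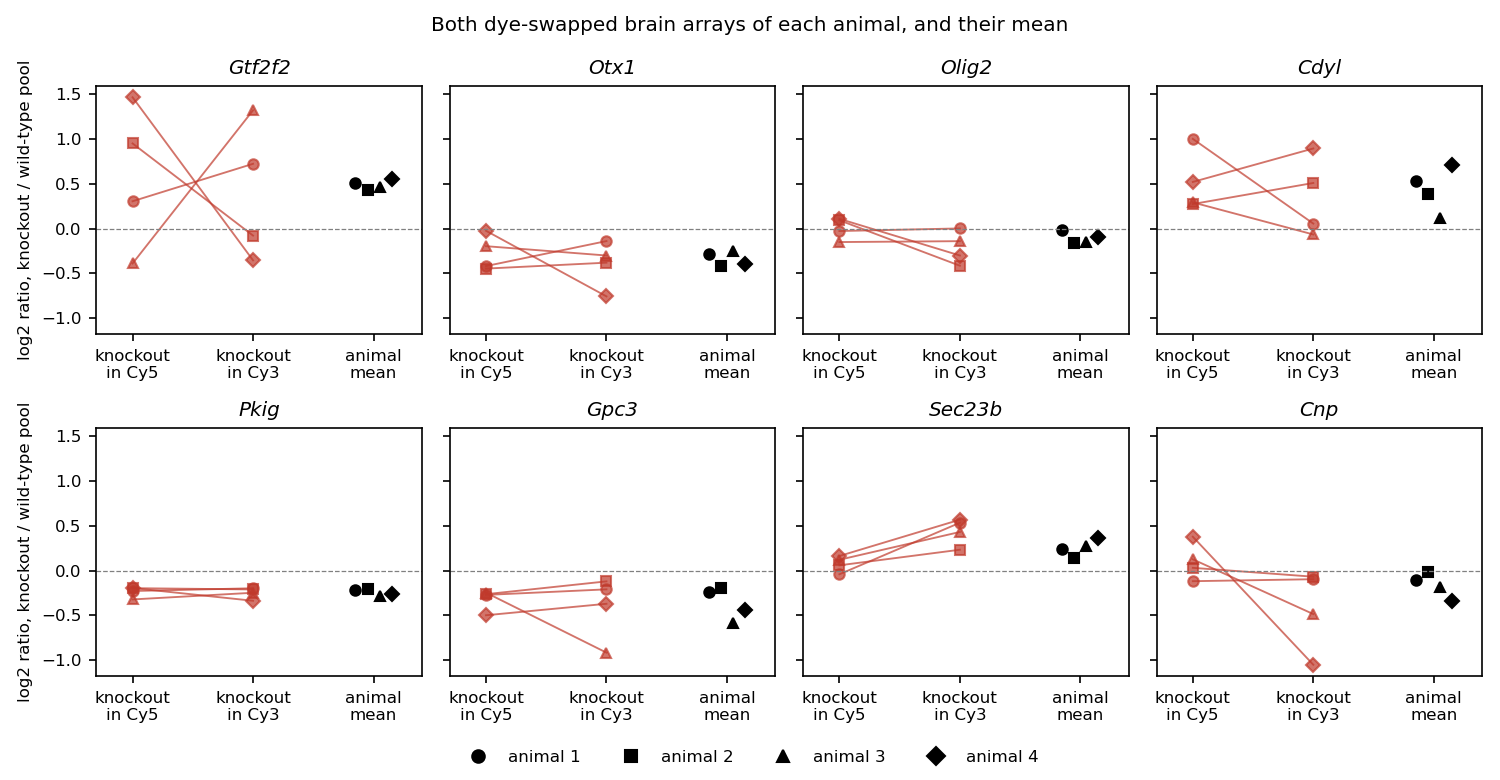
Log2 ratio of knockout over wild-type pool (y axis) for the 8 genes in brain, on arrays that labelled knockout RNA with Cy5, on those that used Cy3, and as the mean of both; symbols are animals and a line joins the 2 arrays of an animal. Gtf2f2 arrays run from −0.39 to 1.47 while its 4 animal means lie between 0.44 and 0.56, and Pkig arrays lie between −0.34 and −0.19.

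How selective this choice was can be read from all genes. Of 16337 genes with all 4 brain animals, 2546 (15.6%) had 1 sign in every brain, 8.86% above and 6.73% below the pool. By the size of the brain mean among these 2546, Gtf2f2 ranked 34, Cdyl 49, Gpc3 79, Otx1 95, Sec23b 175, Pkig 213, Cnp 644 and Olig2 1442. In brain 0 of 16729 genes (0%) passed limma, the smallest adjusted p being 0.773, and 4.13% were under 0.05 before adjustment.

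The other 3 tissues did not enter the choice of members, and there each gene was tested. In kidney, muscle and pancreas 0 of the 8 members passed limma at an adjusted p under 0.05, where limma called 0 of 16825, 0 of 16662 and 0 of 16377 genes in all (0% each). Of 23 tests of a member in a tissue, 2 had an unadjusted p under 0.05, Pkig in kidney and Olig2 in muscle. Over all genes, 9.28% were at that level in kidney, 7.29% in muscle and 2.91% in pancreas. Gpc3 was not tested in pancreas, where only animal 4 had both arrays (−1.14). The members' means lay on the side of their brain mean for 3 of 8 genes in kidney, 3 of 8 in muscle and 5 of 8 in pancreas. As deposited, Pkig alone did so in all 3 tissues. With values beyond 8 missing Cdyl did so too, at 0.05 in kidney, 0.26 in muscle and 0.11 in pancreas. In that setting Sec23b left the side of the brain in pancreas, at −0.83. The pancreas count includes Gpc3, which had 1 animal there. The share of all genes on the side of their brain mean was not taken. All 4 animals shared a sign for 1 of 8 members in kidney (Pkig; 19.9% of all genes), for 1 of the 5 members with 4 muscles (Olig2; 18.9% of all genes) and for 1 of the 6 members with 4 pancreata (Pkig; 10.6% of all genes).

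**Figure D2:**
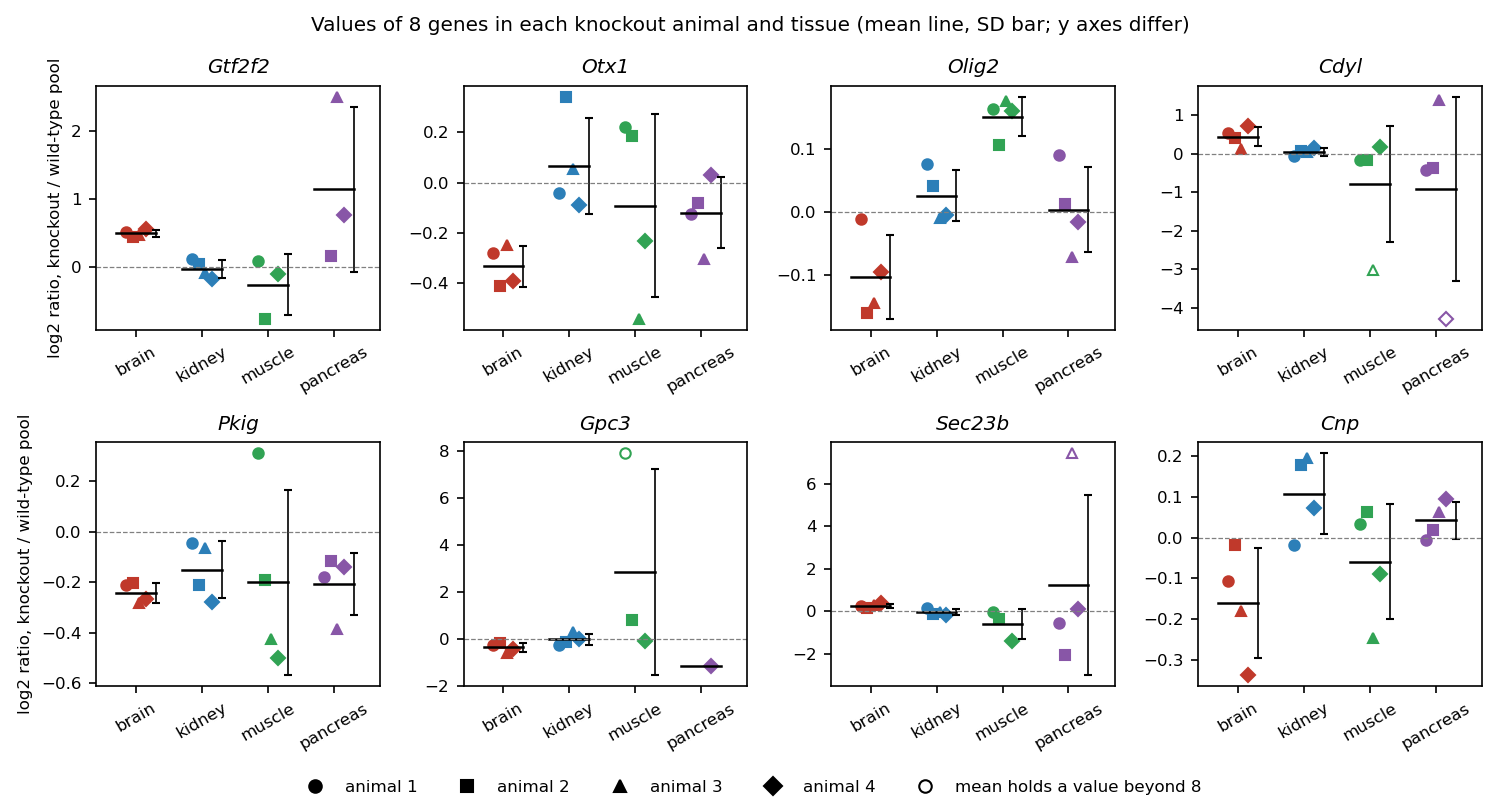
Log2 ratio of knockout over wild-type pool (y axis, scales differ between panels) for the 8 genes by tissue; each symbol is the mean of the 2 arrays of 1 animal, the line is the mean over animals and the bar the SD, and open symbols hold an array value beyond 8 in size. Pkig lies below 0 in every animal of brain, kidney and pancreas, while the Olig2 brains are below 0 and the Olig2 muscles above it.

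Pkig, the kinase inhibitor, had an animal mean below the pool in every tissue of every animal but 1 muscle. Single Pkig arrays were above 0 on 1 of 8 in kidney, 2 of 8 in muscle and 3 of 8 in pancreas. Its kidney means were −0.04, −0.21, −0.07 and −0.28, or −0.15 ± 0.11 (SD, n = 4; limma adjusted p = 0.525). Its pancreas means were −0.18, −0.12, −0.39 and −0.14, or −0.21 ± 0.12 (limma adjusted p = 0.991), and its muscle means 0.31, −0.19, −0.43 and −0.50, or −0.20 ± 0.37 (limma adjusted p = 0.714). All 4 kidneys and all 4 pancreata were below 0, and in muscle animal 1 alone was above. The shares of all genes below the pool in all 4 animals were 9.85% in kidney and 5.15% in pancreas. Averaged over the 3 tissues Pkig was at −0.19 ± 0.06 (SE; limma adjusted p = 0.517, 0 of 16287 genes called, 0%; 8.08% of genes were under 0.05 before adjustment). That mean was −0.37 on the Cy3 arrays alone (limma adjusted p = 0.00972) and −0.0015 on the Cy5 arrays alone (limma adjusted p = 0.989). After reversing the Cy3 arrays it came to 0.18 (limma adjusted p = 0.00650). Such calls were common in these 2 settings. Over all genes, limma called 4674 of 16556 on the Cy3 arrays alone and 7334 of 16287 after reversing them. With the brain at −0.24, the difference of brain minus the other tissues was −0.06 ± 0.11 (SE). The tissue means ran from brain through pancreas and muscle to kidney, and the animals of neighbouring tissues in that order overlapped.

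The 2 Pkig probes parted outside the brain. Probe 20675 was at −0.18 ± 0.19 in kidney, −0.38 ± 0.54 in muscle and −0.42 ± 0.21 in pancreas (SD, n = 4 each). Probe 11126 was at −0.12 ± 0.08 in kidney, with −0.02 ± 0.21 in muscle and 0.01 ± 0.34 for the pancreas samples. Probe 20675 alone carried the pancreas value of Pkig, and in kidney both probes averaged below the pool. In pancreas Pkig averaged 0.12 over the Cy5 arrays and −0.53 over the Cy3 arrays. Its relative Pkib, another inhibitor of protein kinase A, was at 0.01 ± 0.14 in brain and 0.10 ± 0.09 in kidney, where all 4 animals were above 0 (SD, n = 4 each). Muscle gave 0.09 ± 0.22 for Pkib and pancreas −0.11 ± 0.21. Pkib passed in none of these tissues (limma adjusted p from 0.584 to 0.991).

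**Figure D3:**
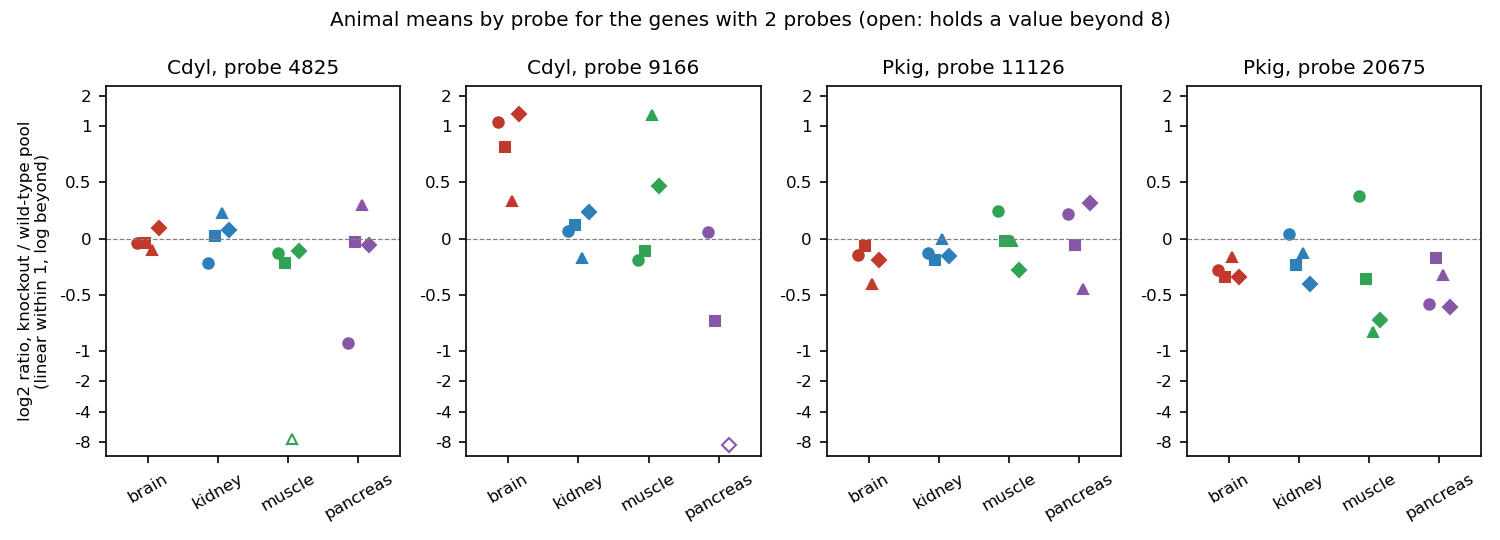
Log2 ratio of knockout over wild-type pool (y axis, linear within 1 and logarithmic beyond) by tissue for each probe of Cdyl and Pkig; each symbol is the mean of the 2 arrays of 1 animal, and open symbols hold an array value beyond 8 in size. Cdyl probe 9166 averages 0.89 in brain and probe 4825 averages −0.02, while both Pkig probes are below 0 in all 4 brains.

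Among the transcription factors, Olig2 had muscle means of 0.16, 0.11, 0.18 and 0.16, or 0.15 ± 0.03 (SD, n = 4; limma adjusted p = 0.661). All 4 muscles were above the pool (6.85% of all genes were), whereas all 4 brains were below it. As in brain the dyes differed, with a muscle mean of −0.04 over the Cy5 arrays and 0.34 over the Cy3 arrays. Olig2 was at 0.03 ± 0.04 in kidney and 0.00 ± 0.07 in pancreas, within the spread around the pool. Brain minus the mean of the other tissues was −0.16 ± 0.05 (SE), with no test, because brain picked the gene. Olig1, its neighbour in function, was at −0.06 ± 0.07 in brain and 0.08 ± 0.06 in muscle (SD, n = 4 each), above 0 in all 4 muscles. Kidney gave 0.03 ± 0.03 for Olig1 and pancreas 0.07 ± 0.11.

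Otx1 scattered around the pool outside the brain. Its kidney means were −0.04, 0.34, 0.05 and −0.09 (0.07 ± 0.19, SD, n = 4; limma adjusted p = 0.809). Its muscle means were 0.22, 0.18, −0.54 and −0.23 (−0.09 ± 0.36; limma adjusted p = 0.856), and its pancreas means −0.12, −0.08, −0.31 and 0.03 (−0.12 ± 0.14; limma adjusted p = 0.991). The brain values, from −0.41 to −0.25, overlapped with muscle and pancreas. Single Otx1 arrays of brain and kidney also overlapped, from −0.76 to −0.02 in brain and from −0.325 to 0.46 in kidney. Brain minus the mean of the others was −0.28 ± 0.12 (SE). Gtf2f2 was at −0.03 ± 0.13 in kidney (SD, n = 4, limma adjusted p = 0.869), with animal means between −0.18 and 0.11. Its single arrays overlapped, from −0.33 to 0.40 in kidney and from −0.39 to 1.47 in brain. In muscle Gtf2f2 was at 0.08, −0.76 and −0.11 (n = 3). In pancreas it was at 0.15, 2.49 and 0.76 (n = 3, limma adjusted p = 0.991), with single pancreas arrays from −0.06 to 3.96. Pancreas lay on the brain's side in its 3 measured animals, and brain minus the others came to 0.21 ± 0.31 (SE). Gtf2f1, the large TFIIF subunit, was at −0.06 ± 0.09 in brain and below 0 in all 4 muscles, at −0.31 ± 0.20 (SD, n = 4; limma adjusted p = 0.596). Over all genes, 18.9% had 1 sign in all 4 muscles and 58.4% had a muscle mean below 0.

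Cdyl was at 0.05 ± 0.10 in kidney (SD, n = 4; limma adjusted p = 0.791), from −0.07 to 0.16. Its muscle means were −0.16, −0.17, −3.03 and 0.18, and its pancreas means −0.43, −0.38, 1.39 and −4.27. The tissue means of −0.79 in muscle and −0.92 in pancreas each rested on an animal with a value beyond 8 (animal 3 in muscle, animal 4 in pancreas), and with such values as missing they were 0.26 and 0.11. The difference of brain minus the others was 0.99 ± 0.75 (SE) as deposited and 0.29 with those values missing. Cdyl2, its relative, was at 0.01 ± 0.19 in brain and below 0 in all 4 muscles, at −0.17 ± 0.11 (SD, n = 4; limma adjusted p = 0.661). In muscle 18.9% of all genes had 1 sign in all 4 animals, and 58.4% had a mean below 0.

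Gpc3, the surface proteoglycan, was at −0.02 ± 0.24 in kidney (SD, n = 4; limma adjusted p = 0.959), with animal means of −0.25, −0.11, 0.31 and −0.02. In muscle its means were 7.91, 0.79 and −0.11 (n = 3), the 7.91 holding a value beyond 8. Fewer than 3 pancreata had both arrays, so no difference from brain was fitted. Of its relatives, Gpc4 was below 0 in all 4 brains at −0.08 ± 0.07 (SD, n = 4; limma adjusted p = 0.773) and Gpc5 was at −0.23 ± 0.23. In muscle Gpc5 was above the pool in all 4 animals, at 0.94 ± 0.57 (SD, n = 4; limma adjusted p = 0.539).

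Sec23b, of the vesicle coat, had kidney means of 0.15, −0.14, −0.03 and −0.15 (−0.04 ± 0.14, SD, n = 4; limma adjusted p = 0.845). The 3 muscles with both arrays had means of −0.05, −0.37 and −1.40 (limma adjusted p = 0.679). Muscle of animal 3 had 1 array, at 2.70, and with 1 array enough the muscle mean turned to 0.22 (limma adjusted p = 0.930), on the side of the brain. Its pancreas means were −0.56, −2.03, 7.42 and 0.11, the 7.42 holding a value beyond 8. The mean was −0.83 with that value missing and 1.24 as deposited, and brain minus the others was 0.75 ± 0.31 with it missing and 0.06 ± 1.18 as deposited (SE). Sec23a, the other form of this coat subunit, was at 0.02 ± 0.12 in brain, and between −0.31 and −0.08 on average in the other tissues (limma adjusted p from 0.674 to 0.991). Cnp, the myelin enzyme, had kidney means of −0.02, 0.18, 0.20 and 0.07, or 0.11 ± 0.10 (SD, n = 4; limma adjusted p = 0.573). It was at −0.06 ± 0.14 in muscle and 0.04 ± 0.05 in pancreas. In pancreas Cnp averaged 0.44 over the Cy5 arrays and −0.36 over the Cy3 arrays. Brain minus the mean of the others was −0.19 ± 0.07 (SE) for Cnp, and 0.03 ± 0.14 with the Cy3 arrays turned.

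**Figure D4:**
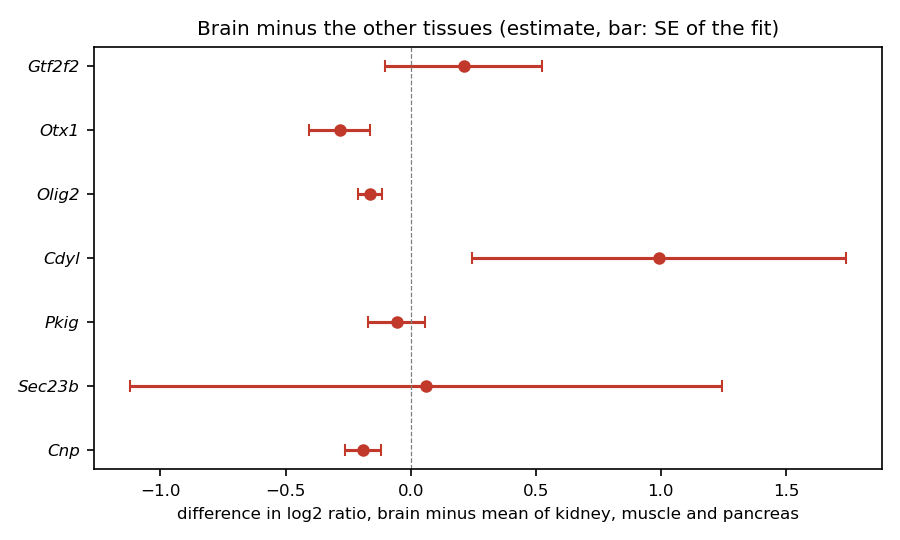
Difference in log2 ratio of brain minus the mean of kidney, muscle and pancreas (x axis) for the 7 genes with at least 3 animals in each tissue; points are estimates and bars the SE of the fit. Otx1, Olig2 and Cnp lie at −0.28, −0.16 and −0.19, Pkig at −0.06, and the bars of Cdyl and Sec23b are widened by array values beyond 8.

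For brain minus the mean of the other tissues, 0 of 16257 genes (0%) passed limma, and 6.57% were under 0.05 before adjustment. Nothing is read from this for the members, since brain picked them. The pathways around them were described by lists, of which no gene passed in any tissue, and the brain counts leave out the members. Of 23 general transcription factor and RNA polymerase II genes, 13 were above 0 in brain with a median of 0.01, against 53.4% above 0 and a median of 0.01 over all genes. Genes named from a list are those of smallest p in it, so 1 sign in all 4 brains comes in part from that choice. Here these were Cdk7, the kinase of TFIIH, at 0.14 ± 0.05 and Taf11, of TFIID, at 0.14 ± 0.06 (SE, n = 4, limma adjusted p = 0.773 each). Both were above 0 in all 4 brains, as were 8.86% of all genes. Over the other 3 tissues Gtf2h3 and Polr2b had the smallest p, at 0.13 ± 0.06 and 0.14 ± 0.06 (SE; limma adjusted p = 0.603 and 0.611).

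Of 7 forebrain factors 4 were below 0 in brain, with a median of −0.03. Lhx2, a LIM homeobox factor of cortex, was at −0.40 ± 0.19 (SE, n = 3; limma adjusted p = 0.773), and Fezf2 at 0.10 ± 0.06. Over the other tissues Bcl11b was at 0.10 ± 0.05 and Cux2 at −0.08 ± 0.06 (SE; limma adjusted p = 0.627 and 0.747). Of 19 genes of protein kinase A signalling, 12 were below 0 in brain (median −0.04). The adenylyl cyclase Adcy2 was at −0.09 ± 0.04 (SE, n = 4; limma adjusted p = 0.773) and the regulatory subunit Prkar1a, with 2 values beyond 8 among its arrays, at −1.29 ± 0.78. Over the other tissues the anchoring protein Akap12 was at −0.20 ± 0.07 (SE; limma adjusted p = 0.577) and Prkar1a at 0.61 ± 0.29. Of 16 proteoglycan and heparan sulphate genes, 9 were below 0 in brain (median −0.05), while 12 of 16 were above 0 over the other tissues (median 0.04), where 45.7% of all genes were. Hs6st1, a heparan sulphate sulphotransferase, was at −0.23 ± 0.09 in brain, and Hpse, heparanase, at 0.16 ± 0.07 (SE, n = 4; limma adjusted p = 0.773 each). Extl1, an exostosin-like gene, was at 0.23 ± 0.06 over the other tissues (SE; limma adjusted p = 0.488), with 0.62 in pancreas, and Gpc5 at 0.28 ± 0.11 (limma adjusted p = 0.577), with 0.94 in muscle.

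Of 21 chromodomain and repressive histone methylation genes 10 were above 0 in brain (median 0.00). With Cdyl included, 15 of 21 were below 0 over the other tissues (median −0.04), where 54.3% of all genes were. Trim28, a corepressor, was at 0.10 ± 0.04 in brain, above 0 in all 4 animals, and Ehmt1, a histone H3 methyltransferase, at 0.15 ± 0.07 (SE; limma adjusted p = 0.773 each). Rcor2, a CoREST subunit, was at −0.08 ± 0.03 over the other tissues and above 0 in all 4 brains at 0.07 (SE; limma adjusted p = 0.600 over the other tissues). Cdyl2 was at −0.14 ± 0.06 over those tissues (SE; limma adjusted p = 0.617). The COPII and endoplasmic reticulum exit genes had 9 of 15 above 0 in brain (median 0.01). With Sec23b included, 13 of 16 were below 0 in muscle (median −0.09), 10 in kidney and 10 in pancreas. The shares of all genes below 0 in these tissues were 58.4%, 48.5% and 49.6%. Lman1, a cargo receptor at this step, was at 0.17 ± 0.07 in brain and Sec16b, which organises exit sites, at 0.15 ± 0.06 (SE, n = 4; limma adjusted p = 0.773 each), above 0 in all 4 brains. Mcfd2, the partner of Lman1, was at −0.09 ± 0.04 and the GTPase Sar1a at 0.15 ± 0.06 over the other tissues (SE; limma adjusted p = 0.577 and 0.588).

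Cnp and Olig2 were below the pool in brain, and 5 of the 14 other oligodendrocyte and myelin genes were below 0 there (median 0.03). With Cnp and Olig2 included, 13 of 16 were above 0 in kidney (median 0.02), 10 in muscle and 9 in pancreas. The shares of all genes above 0 in these tissues were 51.5%, 41.6% and 50.4%. Cspg4, a proteoglycan of oligodendrocyte precursors, was at −0.11 ± 0.06, below 0 in all 4 brains. Gjb1, the connexin of myelinating cells, was at 0.09 ± 0.05 and above 0 in all 4 (SE, n = 4; limma adjusted p = 0.773 each). Over the other tissues Tspan2 was at 0.10 ± 0.03 and Mal at 0.15 ± 0.06 (SE; limma adjusted p = 0.493 and 0.577). In brain 7 of 13 neuron markers, 5 of 9 astrocyte markers, 4 of 7 microglia markers and 6 of 9 endothelial markers were above 0, with medians of 0.05, 0.00, 0.01 and 0.06. Of 4 choroid plexus genes 1 was above 0, and of 4 erythroid genes 3.

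The genes whose animal values most resembled each member were taken from 7716 candidates by Pearson r, as a description. Points share the animal across tissues and the pool within a tissue. Each r is among the 2 highest of all candidates, so its size comes in part from that choice. The brain values that picked the members enter each r. Over 16 animal values, Otx1 was nearest Synpr, a synaptic vesicle protein (r = 0.844), and Trim3 (r = 0.764). Pkig was nearest Fbxo6 (r = 0.895) and the keratin Krt16 (r = 0.882), Olig2 nearest the cytokine gene Ltb (r = 0.825) and Ehd4 (r = 0.816), and Cnp nearest Npm2 (r = 0.823) and Fam171a2 (r = 0.785). Gtf2f2, over 14 values, was nearest Klhl12 (r = 0.940) and the ribosomal protein gene Rpl37 (r = 0.939). Values beyond 8 in the member enter the r of Cdyl with Gp9 (0.897) and Snd1 (0.872) over 16 values, of Gpc3 with Vopp1 (0.901) and Dnajc10 (0.850) over 12, and of Sec23b with Sepsecs (0.959) and the GTPase gene Rab7 (0.957) over 15.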

How the data were processed

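RNA of each tissue of 4 knockout animals was measured on 32 2-colour cDNA arrays against a wild-type pool, from 20 µg of total RNA per the labels' protocols. The authors deposited log2 ratios for every probe of an array, with array medians between −0.07 and 0.05; base 2 is inferred from the sizes (up to 17.2). How the arrays were scanned, corrected, normalised and filtered is not given in the sources used here. Precision is limited by having 4 knockout animals per tissue and pooled wild-type RNA, since the arrays of an animal's tissue are a dye-swapped pair.

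The array's probe annotation gave 12771 probes 1 symbol and 8023 none. Probes of a symbol were averaged, then the 2 arrays of an animal, both required. Limma (version 3.58.1, R 4.3.3; lmFit, eBayes) tested each tissue's mean against 0 for genes with at least 3 animals, two-sided, with Benjamini-Hochberg adjustment over all genes and a threshold of 0.05. The pool counts as 1 control sample, so its own spread is left out, and animals of a tissue share its deviation. The 3 other tissues together, and brain minus their mean, were fitted with a shared spread. The fits were tried on simulated data, where those of the 3 tissues together and of brain minus their mean called unchanged genes more often than the threshold allows, so calls from these fits, in the alternatives too, are less reliable than those within a tissue. Named genes were the members, listed relatives, the 2 members of each list with the smallest p in brain and over the other tissues, and the 2 genes of highest r with each member. Members and lists were chosen with earlier results of these data known. The numbers pair samples across tissues, as each animal gave all of them; deviations from the tissue mean correlated between tissues at r from −0.09 to 0.12. The 2 arrays of a brain animal correlated at r from −0.18 to −0.01, and brain arrays of 1 dye orientation at r from 0.03 to 0.29, so the closing section also gives counts after reversing the sign of the Cy3 arrays. Promoter sequences are RefSeq's.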

Additional observations from a re-analysis of the deposited data

Results flagged for a closer look

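Of 27 groups of 4 animal values among the members, 1 held an animal that stood far from the rest. The nominal rate of this rule is about 1 in 20. The 27 include the 8 brain groups, whose values picked the members, so the count is not weighed against that rate. The flagged animal was animal 3 for Cdyl in muscle, with −3.03 where the other animals had −0.17 to 0.18. Its mean holds an array value beyond 8.

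Of 45 pairs of tissues compared within a member, 2 had all animals with both arrays on opposite sides of the pool. Both pairs include brain, where the choice of members had fixed a single side, so only the muscle side was free. Of 16118 genes with 4 muscles, 3042 (18.9%) had 1 sign in all of them. Above 0 in all 4, the side of Olig2, were 1104 (6.85%). No share was taken for Sec23b, which was below 0 in 3 muscles. For Olig2, brain was at −0.10 and muscle at 0.15, a difference of −0.25. For Sec23b, brain was at 0.26 and the 3 muscles with both arrays at −0.61, a difference of 0.86. The muscle of animal 3 had 1 array, at 2.70, and with it the muscle mean was 0.22, on the side of the brain. These differences were not tested, because the brain values had picked the genes.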

How the results depend on the processing

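In kidney, muscle and pancreas taken singly, 0 members were called under any alternative run. For the 3 tissues together the count of members was 2 of 7 with the Cy3 arrays turned (Cnp, and Pkig above the pool), where 7334 of 16287 genes were called. It was 1 of 7 on Cy5 arrays alone (Cnp), with 5167 of 16576 genes called. On Cy3 arrays alone it was 2 of 8 (Sec23b, and Pkig below the pool), with 4674 of 16556 genes called. In all other alternatives, each animal left out and the replicate block included, the count of members was 0. Over all genes, brain calls were 1 with the Cy3 arrays turned, 1 on Cy5 arrays alone and 0 to 1 with an animal left out (1 without animal 2). Calls for brain minus the others were 2 with the Cy3 arrays turned, 1 on Cy5 arrays alone and 0 to 1 with an animal left out (1 without animal 1 and 1 without animal 3), and 0 with the animal as replicate block, as without it. Over all genes against 0 as reported, kidney had 1 call with values beyond 8 missing, 1 under robust moderation and 7 in the 8-array fit. Muscle had 328 with Cy3 arrays turned, 255 with a spread shared by all tissues, 2 in the 8-array fit, 1 on Cy3 arrays alone and 1 without animal 2. Pancreas had 2388 with Cy3 arrays turned, 57 with the shared spread and 1 on Cy5 arrays alone. The 3 tissues together had 7334 with Cy3 arrays turned, 5167 and 4674 on Cy5 and Cy3 arrays alone, 22 in the 8-array fit, 4 without animal 1 and 1 without animal 4. The cause of these moves was not tested.

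Leaving out an animal could not turn a brain mean, since the members were chosen for 1 sign in every brain. With the Cy3 arrays turned 6 of 8 changed sign (all but Gtf2f2 at 0.09 and Cdyl at 0.09), as did 5 of 7 differences of brain minus the others (Cnp at 0.03, Olig2 at 0.14, Gtf2f2 at −0.02, Cdyl at −0.77 and Sec23b at −1.56), and on Cy5 arrays alone the brain means of Cnp and Olig2 did (0.10 and 0.01). Sec23b in muscle was at 0.22 with 1 array of an animal enough. With values beyond 8 missing, Sec23b was at −0.83 in pancreas, Cdyl at 0.26 in muscle and Cdyl at 0.11 in pancreas, each opposite in sign to the value as deposited. With the animal as replicate block, Sec23b in brain minus the others was at −0.17, against 0.06 without the block.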

Other observations

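Genes that mark other cells of the tissues were read in the same way, and none passed limma. In brain, Syt1, a calcium sensor of synaptic vesicles, was at 0.11 ± 0.04 and above 0 in all 4 animals, and the neurofilament gene Nefh was at −0.16 ± 0.07 and below 0 in all 4 (SE, n = 4; limma adjusted p = 0.773 each). Over the other 3 tissues Syt1 was at −0.13 ± 0.05 and the vesicular glutamate transporter Slc17a7 at −0.12 ± 0.04 (SE; limma adjusted p = 0.577 each). Of 9 endothelial genes 6 were above 0 in brain and 6 below 0 in muscle. Tek and Cdh5 were at −0.17 in brain each and at 0.595 and 0.42 in muscle, while Tie1 was at 0.10 in brain and −0.10 in muscle. Of 9 astrocyte genes 5 were above 0 in brain, with Slc1a3 at −0.20 and Glul at −0.06. Of 7 microglial genes 4 were above 0 in brain, with the complement genes C1qb at −0.13 and C1qc at 0.03. Alas2, the first enzyme of haem synthesis in red cell precursors, was at −0.23 ± 0.05 and below 0 in all 4 brains (SE, n = 4; limma adjusted p = 0.773). The other 3 erythroid genes were above 0 there, with the globin gene Hba-a1, with 1 value beyond 8 among its arrays, at 0.38 ± 0.25 (SE, n = 4). Of the choroid plexus genes, Folr1 was at −0.80 ± 0.57 in brain (SE, n = 3), though 2 of the 3 animals were above 0. Aqp1 was at 0.06 ± 0.06 there (SE, n = 4).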
